A study of Mus musculus with 3 samples.

Results

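The genes described here are 9 of the 27998 listed in the count tables: the laminin alpha chains Lama2, Lama3, Lama4 and Lama5, the beta chains Lamb1, Lamb2 and Lamb3, the gamma chain Lamc1, and nidogen-1, Nid1. They were chosen as members of a protein family and not by a rule on a measured value, but with earlier results of these data known. The data are 3 single-cell RNA libraries (droplet 3′ chemistry with unique molecular identifiers, UMIs) from lungs of MMTV-HER2/Neu mice on the FvB background, a model in which the mouse mammary tumour virus promoter drives the HER2/Neu oncogene mainly in mammary epithelium. Each library is a CD45- sort, which leaves out most blood leukocytes. The late HER2-positive library comes from mice older than 20 weeks that carried primary tumours. The early HER2-positive library comes from mice of 14 to 18 weeks with no palpable tumour. The early HER2-negative library comes from mice of 14 to 18 weeks as well. The labels call the HER2-positive cells breast cancer cells and the HER2-negative cells non-cancer lung cells. How many mice stand behind each library, and whether they were pooled, is not given in the sources used here.

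Laminins are cross-shaped trimers of an alpha, a beta and a gamma chain, assembled inside the cell and secreted into the basement membrane, the thin sheet beneath epithelium and endothelium and around muscle and pericytes. Nidogens link the laminin network to the collagen IV network, and cells hold on to laminin through integrins, dystroglycan and Lutheran/BCAM. The alpha chain largely sets which receptors bind: Lama2 is best known from muscle, Lama3 joins Lamb3 in the epithelial trimer that anchors hemidesmosomes, Lama4 is the vascular and mesenchymal chain, and Lama5 is the common chain of adult epithelial and endothelial basement membranes.

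Kept barcodes held at least 1000 UMIs with under 25% mitochondrial UMIs: 6012 of the late HER2-positive, 7622 of the early HER2-positive and 6416 of the HER2-negative library, with median depths of 8075, 5318.5 and 3166 UMIs. The libraries shared 10 to 18 kept barcodes per pair. Each barcode went to the first class whose marker rule it met, and levels are UMIs of the gene per 1e+06 UMIs of the class (counts per 1e+06, CPM), given for classes of at least 50 barcodes. UMIs count captured 3′ ends, 1 per molecule, so CPM were not divided by gene length, although capture may differ between genes. The late library held 161 mammary, 3996 alveolar type 2 (AT2), 108 alveolar type 1 (AT1), 479 endothelial, 297 smooth muscle, 626 pericyte, 75 fibroblast and 116 ciliated barcodes. The early HER2-positive library held 3939 AT2, 238 AT1, 1519 endothelial, 547 smooth muscle, 755 pericyte, 277 fibroblast and 76 ciliated barcodes. The HER2-negative library held 5179 endothelial, 60 smooth muscle, 147 pericyte and 692 fibroblast barcodes, and too few AT2 (46) and AT1 (49) barcodes to be described. Most barcodes of the HER2-positive libraries thus carried the surfactant transcript Sftpc of lung AT2 cells, and the mammary class was described in the late library. Check markers not used by the rules were highest in their own class for 6 of 6 genes, or 8 of 8 for the mammary class, except that 5 of 6 were so in the late AT1 class and 4 or 5 of 6 in the fibroblast classes. With 1 library per group there is no replicate check and no test: 95% intervals are exact and cover counting error only, a gene is called higher or lower at a ratio of at least 1.5-fold either way with at least 10 UMIs over both sides, and fewer cells of a kind cannot be told apart from less RNA per cell where a class mixes cells.

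Among the alpha chains, Lama2 and Lama4 were genes of the mesenchymal classes. Lama2 (GRCm38 chr10:26980036-27619758, minus strand) measured 208 CPM in late HER2-positive, 219 CPM in early HER2-positive and 256 CPM in HER2-negative pericytes. In fibroblasts it measured 194, 209 and 153 CPM in the same order of libraries, a range that overlapped that of pericytes. Smooth muscle followed without overlap, at 99.1, 73.6 and 87.0 CPM. Every other class lay at or below 21.0 CPM, and ciliated barcodes held no Lama2 UMI, which, taken as a floor of 3 UMIs, allows up to 2.81 CPM in the late and 5.47 CPM in the early HER2-positive library.

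Lama4 (chr10:38965515-39110188, plus strand) was highest in pericytes, at 333 CPM late, 359 CPM early HER2-positive and 338 CPM HER2-negative. Smooth muscle gave 248, 232 and 279 CPM, below the pericyte range. Fibroblasts gave 177, 228 and 214 CPM, below the smooth muscle range. The mammary class of the late library came next with 48.4 CPM, above the endothelial class at 38.3, 34.0 and 19.2 CPM and the ciliated class at 33.7 CPM late and 31.0 CPM early. AT1 barcodes held 9.51 CPM late and 43.7 CPM early, and AT2 barcodes 2.32 CPM late and 12.1 CPM early. The mammary value, from 179 UMIs, was thus above every other epithelial value, with early AT1, from 79 UMIs, nearest to it. The mammary and early AT1 values were within counting error of each other.

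Lama3 and Lama5 ran the other way. Lama3, on chromosome 18, measured 105 CPM in late and 122 CPM in early AT1 barcodes, against 67.4 CPM late and 85.7 CPM early in ciliated and 16.5 CPM late and 15.7 CPM early in AT2 barcodes. Those 3 ranges did not overlap. In the mammary class Lama3 had 2 UMIs, or 0.541 CPM, and no endothelial, mural or fibroblast value was above 9.75 CPM.

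Lama5 (chr2:180176373-180225859, minus strand) was highest in ciliated and endothelial barcodes: 64.6 CPM late and 89.4 CPM early in ciliated barcodes, and 63.6, 52.7 and 63.2 CPM in late, early HER2-positive and HER2-negative endothelium. In the late library the ciliated interval, 50.3 to 81.8 CPM, took in the endothelial value, while in the early HER2-positive library the ciliated interval, 66.1 to 118 CPM, lay above the endothelial one, 47.3 to 58.6 CPM. AT1 barcodes held 30.2 CPM late and 45.9 CPM early, AT2 barcodes 19.3 CPM late and 24.0 CPM early, and mammary barcodes 13.2 CPM. Pericytes, where Lama4 was highest, had the lowest Lama5 of all classes, at 4.22, 3.66 and 2.05 CPM.

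**Figure D1:**
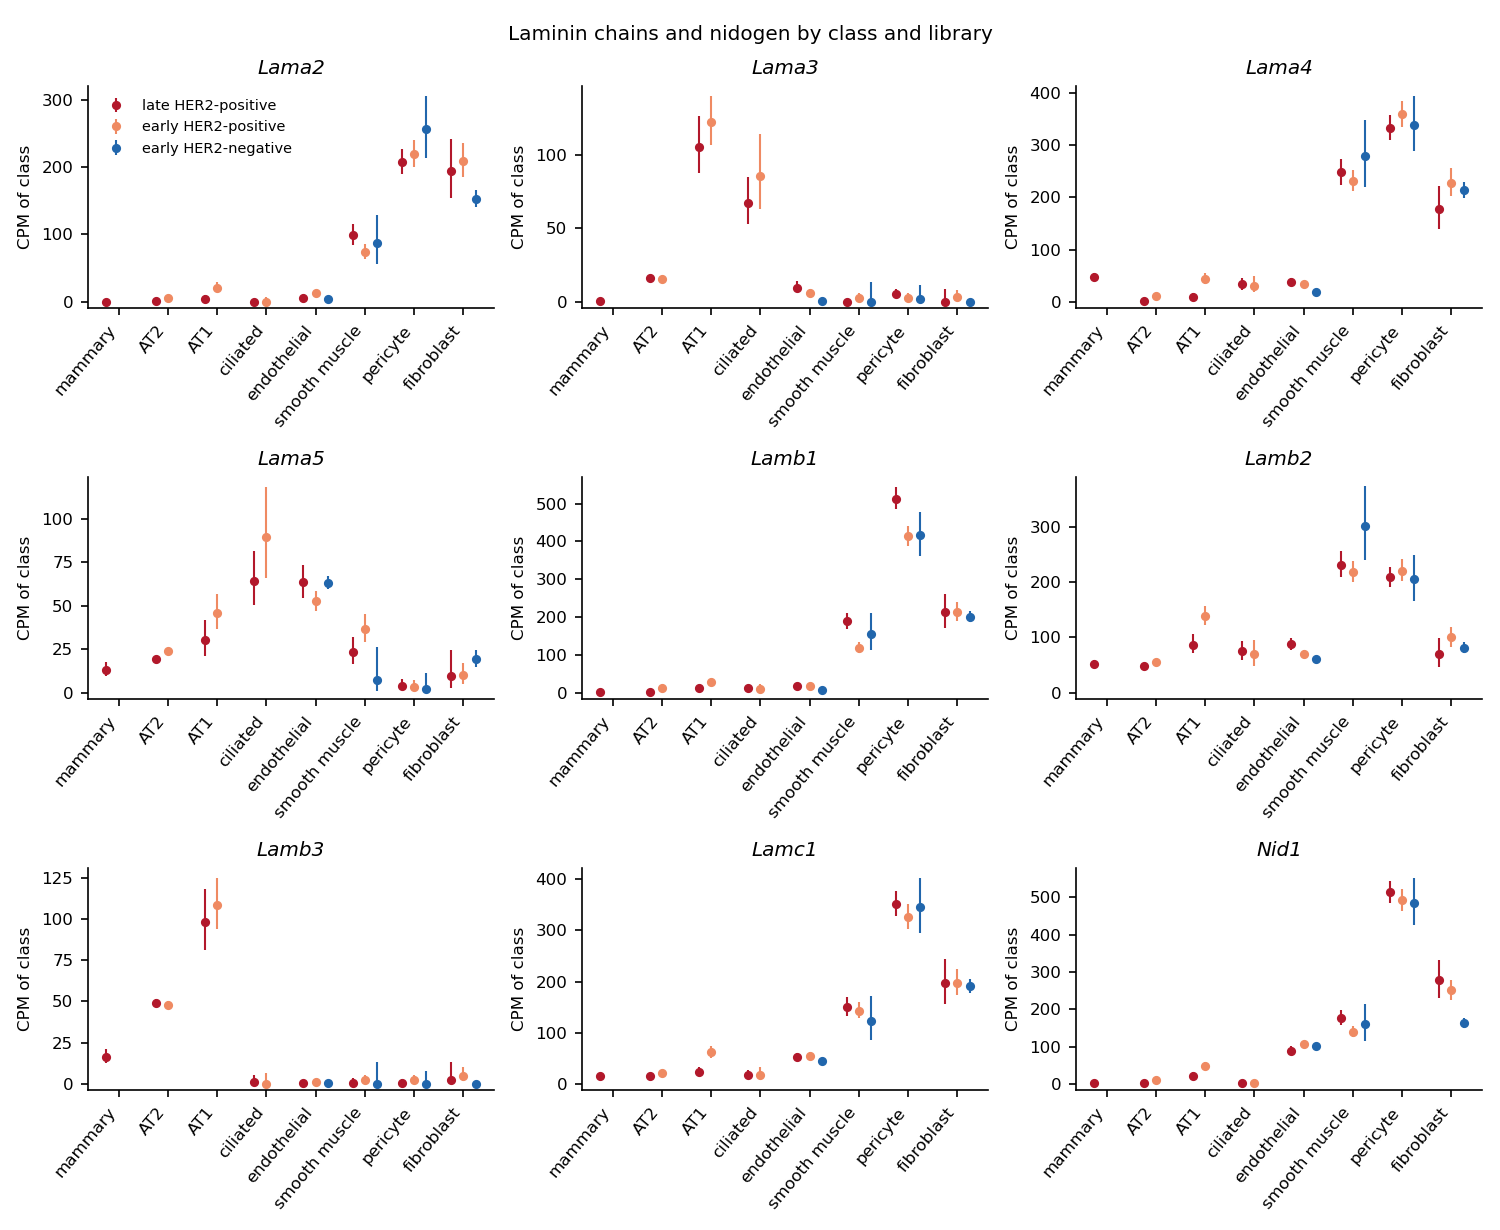
Levels of the 9 genes (CPM, a linear axis for each gene) by cell class, with late HER2-positive, early HER2-positive and HER2-negative libraries as separate points and exact Poisson 95% intervals as bars. Lama2, Lama4, Lamb1, Lamc1 and Nid1 sit highest in pericytes, fibroblasts and smooth muscle, Lama3 and Lamb3 in AT1, and Lama5 in ciliated and endothelial barcodes.

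The beta chains split in the same way, with Lamb2 as the chain found in every class. Lamb1 (chr12:31265234-31329644, plus strand), a beta chain made by many mesenchymal cells, measured 513 CPM late, 414 CPM early HER2-positive and 416 CPM HER2-negative in pericytes. Fibroblasts gave 213, 214 and 201 CPM and smooth muscle 190, 119 and 156 CPM. No other class was above 27.7 CPM, and the mammary class had 1.89 CPM.

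Lamb2 (chr9:108479736-108490530, plus strand), the beta chain of muscle, synapse and mature vessel basement membranes, was highest in smooth muscle with 231, 218 and 301 CPM, overlapping the pericyte values of 209, 221 and 205 CPM. AT1 barcodes held 87.3 CPM late and 138 CPM early. Fibroblast (69.4, 100.2 and 80.9 CPM), endothelial (88.4, 70.6 and 61.4 CPM) and ciliated (74.9 CPM late, 69.3 CPM early) ranges overlapped. AT2 barcodes, at 49.1 CPM late and 56.3 CPM early, and mammary barcodes, at 51.9 CPM, came lowest and close to each other.

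Lamb3 (chr1:193207699-193343878, plus strand), the partner of Lama3, was an alveolar epithelial gene: 98.5 CPM late and 108 CPM early in AT1, 49.1 CPM late and 47.9 CPM early in AT2, and 16.5 CPM in mammary barcodes. Other classes stood at or below 4.66 CPM. The annotated Lamb3 gene overlaps 4 other listed genes, Lama2 and Lama3 overlap 1 each, and whether counting used strand is not given in the sources used here.

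Lamc1 (chr1:153218922-153332786, minus strand), the gamma chain of most trimers, followed Lamb1. Pericytes held 352, 327 and 346 CPM in late, early HER2-positive and HER2-negative libraries, fibroblasts 196, 198 and 191 CPM, and smooth muscle 150.4, 143 and 123 CPM, with no overlap between these classes. Endothelium held 51.8, 55.4 and 45.6 CPM, AT1 22.5 CPM late and 62.0 CPM early, AT2 14.6 CPM late and 20.9 CPM early, and mammary barcodes 16.2 CPM.

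Nid1 (chr13:13437551-13512269, plus strand), the laminin to collagen IV linker, was also highest in pericytes: 515 CPM late, 493 CPM early HER2-positive and 485 CPM HER2-negative. Fibroblasts gave 278, 251 and 162 CPM, overlapping smooth muscle at 176, 139 and 159 CPM. Endothelium was next at 89.4, 106 and 101 CPM. The epithelial classes were low, with 20.7 CPM late and 47.0 CPM early in AT1, 3.66 CPM late and 9.94 CPM early in AT2, and 1.62 CPM, 6 UMIs, in the mammary class.

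RNA free in the droplets sets a floor under the low values. Barcodes of 1 to 100 UMIs, taken as free RNA, held 24.6 CPM of Lama4 in the late and 40.6 CPM in the early HER2-positive library, 22.1 and 54.0 CPM of Nid1, and 15.2 and 12.4 CPM of Lama3. From marker genes of other classes, free RNA was estimated to make up 8.17% of the UMIs of late and 8.92% of those of early AT2 barcodes, 2.57% of mammary UMIs, and 1.34%, 1.33% and 0.332% of endothelial UMIs in the late, early HER2-positive and HER2-negative libraries. These estimates are upper figures, since marker RNA in barcodes that mix cells counts as free RNA in them.

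Promoter sequence from RefSeq (GRCm38.p6) was used for 6 of the 9 genes. A search of the 250 bases before the start on either strand found the GC box GGGCGG, the core recognised by Sp1-type factors, in 3 of 6, against 32.7% of 32851 mouse promoters. The AP-1 motif TGANTCA was found in 0 of 6, against 6.75%, and the TATA box TATAAA in 0 of 6, against 12.4%. The 3 windows with a GC box are shown because they belong to genes with unlike class profiles, the epithelial and endothelial Lama5 and the mesenchymal Lamb1 and Nid1. They run 5′ to 3′ on the gene's strand, trimmed to the bases outside the annotated gene, with GC boxes of either strand in capitals: Lama5 at chr2:180225860-180226109 (minus strand), Lamb1 at chr12:31265043-31265233 and Nid1 at chr13:13437352-13437550 (plus strand).
Lama5: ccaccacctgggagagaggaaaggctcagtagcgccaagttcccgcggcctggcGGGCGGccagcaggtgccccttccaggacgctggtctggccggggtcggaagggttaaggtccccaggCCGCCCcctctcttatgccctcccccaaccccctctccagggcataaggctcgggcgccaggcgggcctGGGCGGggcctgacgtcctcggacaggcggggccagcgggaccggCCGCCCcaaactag
Lamb1: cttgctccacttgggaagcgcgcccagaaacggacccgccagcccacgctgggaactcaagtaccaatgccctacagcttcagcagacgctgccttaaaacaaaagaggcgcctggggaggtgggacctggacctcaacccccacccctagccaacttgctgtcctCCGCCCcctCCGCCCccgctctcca
Nid1: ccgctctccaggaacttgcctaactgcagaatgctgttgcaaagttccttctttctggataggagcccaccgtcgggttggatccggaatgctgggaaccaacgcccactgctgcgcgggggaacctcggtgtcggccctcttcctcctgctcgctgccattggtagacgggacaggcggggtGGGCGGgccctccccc
The Lama5 window held 4 GC boxes, the Lamb1 window 2 and the Nid1 window 1. A match of letters is not a binding site, and the libraries measured no binding.

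Set as shares of the alpha and beta chain UMIs, the classes differed in their chain make-up. Among alpha chain UMIs, Lama4 made up 60.5%, 61.4% and 56.5% in late, early HER2-positive and HER2-negative pericytes, with Lama2 at 37.8%, 37.5% and 42.8%. Smooth muscle was similar, with Lama4 at 66.9%, 67.2% and 74.8%. Fibroblasts were nearest to an even mix, with Lama2 at 50.9%, 46.3% and 39.6% and Lama4 at 46.5%, 50.6% and 55.4%. In endothelium Lama5 led at 52.5%, 48.7% and 71.2%.

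In the epithelial classes the order of alpha chains changed from class to class. Lama3 made up 70.5% of late and 52.5% of early AT1 alpha UMIs. AT2 barcodes divided theirs between Lama5, 48.9% late and 41.8% early, and Lama3, 41.9% late and 27.4% early. Ciliated barcodes did likewise, with Lama5 at 39.0% late and 43.4% early and Lama3 at 40.7% late and 41.6% early. Lama4 held 5.89% late and 21.0% early in AT2, 6.36% late and 18.8% early in AT1, and 20.3% late and 15.0% early in ciliated barcodes. The mammary class had a larger Lama4 share than these, at 76.5%, beside 20.9% Lama5.

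For the beta chains, Lamb1 led in pericytes (71.0%, 65.0% and 67.0%) and fibroblasts (74.8%, 67.1% and 71.3%), whereas Lamb2 led in smooth muscle (54.9%, 64.2% and 65.9%), endothelium (81.7%, 77.6% and 88.7%) and ciliated barcodes (85.1% late, 86.4% early). Late alveolar barcodes carried Lamb2 and Lamb3 in near equal parts, at 48.3% each in AT2 and 44.1% and 49.8% in AT1. In the early library Lamb2 was ahead, at 48.6% against 41.3% for Lamb3 in AT2 and 50.4% against 39.5% in AT1. Mammary beta UMIs were 73.8% Lamb2 and 23.5% Lamb3.

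**Figure D2:**
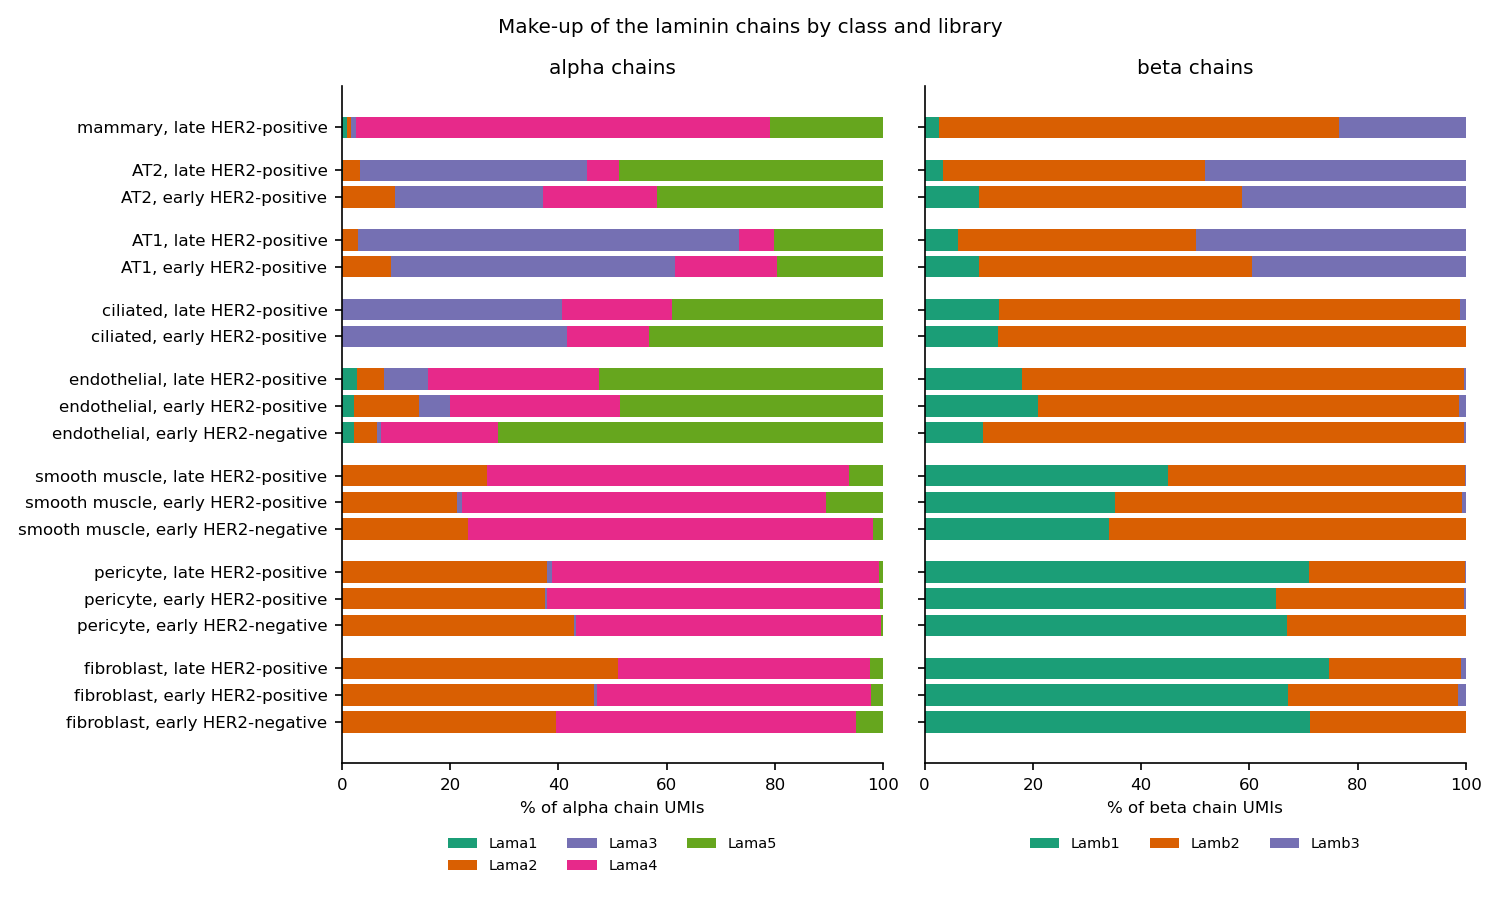
Share of alpha and beta chain UMIs (percent) held by each chain in each class and library. Lama4 and Lama2 lead the alpha share of the mesenchymal classes, Lama3 and Lama5 hold most of that of lung epithelium, with Lama4 at 21.0% in early AT2 and 20.3% in late ciliated barcodes, and Lama4 reaches 76.5% in the mammary class.

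Of the other laminin chains, Lamc3, a minor gamma chain, measured 12.0, 38.0 and 22.8 CPM in fibroblasts and 20.3, 37.1 and 18.4 CPM in pericytes. Lama1, the embryonic alpha chain, was at most 3.36 CPM in any class.

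Late HER2-positive AT2 barcodes were set over early ones. The late mice were older and carried primary tumours, and with 1 library per group age, tumours and library cannot be told apart. No gene of the 9 was higher and 4 were lower, against 3.66% of 14230 tested genes higher and 15.3% lower, and the median log2 ratio was -0.52, against -0.10 over the tested genes. The 4 were genes highest in pericytes, as was Lamc1, which stayed within the limit. Lama4 had 2.32 CPM late and 12.1 CPM early (ratio 0.193, interval 0.150 to 0.245). Lama2 had 1.28 CPM late and 5.63 CPM early (0.228, 0.161 to 0.317). Lamb1 had 3.50 CPM late and 11.7 CPM early (0.299, 0.242 to 0.367), and Nid1 3.66 CPM late and 9.94 CPM early (0.368, 0.298 to 0.454). Lama3 and Lamb3, chains of the alveolar classes, were close to equal, with ratios of 1.05 for Lama3 and 1.02 for Lamb3. Lamb2 gave 0.871, Lama5 0.802 and Lamc1 0.698.

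Markers of other cell types moved with those 4 genes. The summed check markers in AT2 barcodes were lower in the late library for all 4 lists: 58.7 CPM late and 154 CPM early for the endothelial list, 159 CPM late and 596 CPM early for smooth muscle, 51.4 CPM late and 172 CPM early for pericytes, and 32.0 CPM late and 127 CPM early for fibroblasts. Barcodes that also met an endothelial, mural or fibroblast rule were 111 of 3996 late AT2 barcodes (2.78%) and 403 of 3939 early ones (10.2%). They held 83.5% of the late and 94.6% of the early AT2 UMIs of Lama4, 85.1% and 94.8% of those of Nid1, 85.1% and 95.1% of those of Lama2, and 76.6% and 91.4% of those of Lamb1. Of Lama3 UMIs they held 2.81% late and 10.96% early, close to their share of barcodes.

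With those barcodes left out, a comparison added after the values were seen, Nid1 stood at 0.569 CPM late and 0.606 CPM early (0.938, interval 0.456 to 1.97) and Lamb1 at 0.853 CPM late and 1.17 CPM early (0.728). Lama4, at 0.398 CPM late and 0.768 CPM early (0.518, 0.240 to 1.09), and Lama2, at 0.199 CPM late and 0.323 CPM early (0.616, 0.190 to 1.94), were still past the 1.5-fold limit, on intervals that include 1. The count was then 2 lower of 9, against 7.61% of tested genes lower and 5.02% higher. Lama3, Lamb3, Lamb2 and Lama5 gave 1.02, 0.980, 0.964 and 0.824.

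**Figure D3:**
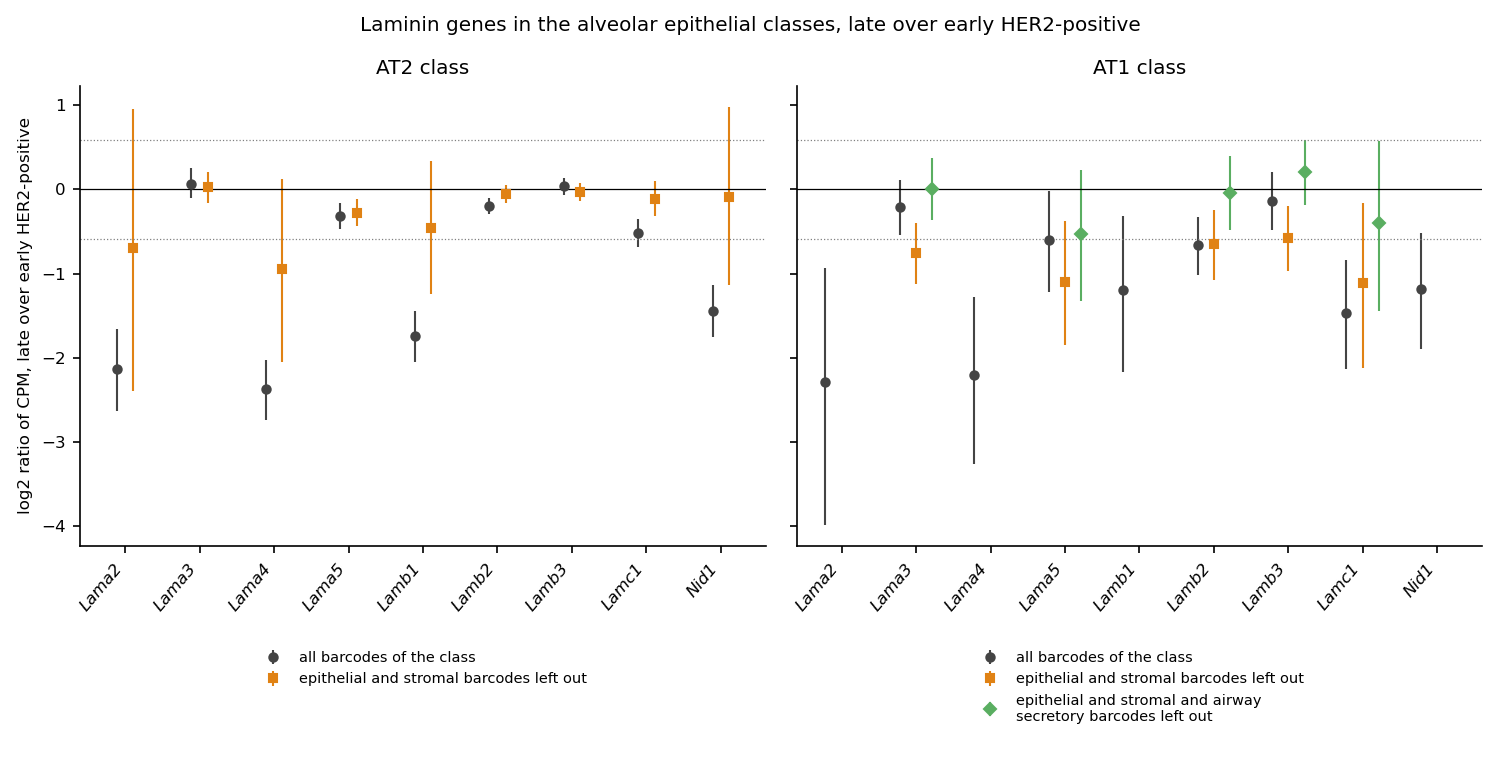
The log2 ratio of late over early HER2-positive CPM (points, with exact 95% intervals as bars) in AT2 and AT1 barcodes, for all barcodes of the class and with mixed barcodes left out. Dotted lines mark 1.5-fold. Lama2, Lama4, Lamb1 and Nid1 lie at ratios between 0.193 and 0.368 in AT2 and move towards equality without barcodes that also met a stromal rule, while Lama3 and Lamb3 stay near 0 on the log2 axis in AT2.

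In AT1 barcodes 7 of the 9 were lower and 0 higher, against 34.1% of tested genes lower and 5.38% higher, with a median log2 ratio of -1.18 against -0.37 over the tested genes. Lama2 (0.205), Lama4 (0.217), Lamc1 (0.363), Lamb1 (0.437) and Nid1 (0.441) were lowest, followed by Lamb2 (0.631) and Lama5 (0.659). Lama3 (0.862, interval 0.685 to 1.08) and Lamb3 (0.908, 0.715 to 1.15) were within counting error of equal. Scaling by the median ratio raised each log2 ratio by 0.31, left 5 of 9 lower and put Lama3 and Lamb3 slightly above equal.

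The late AT1 class was mixed. Airway secretory markers Scgb1a1 and Scgb3a2 summed to 201736 CPM in it, against 12335.6 CPM in early AT1, and 20 of 108 late (18.5%) and 5 of 238 early barcodes (2.10%) had at least 5% of their UMIs from these genes. Barcodes that also met a stromal rule were 17.6% of late and 42.0% of early AT1. Leaving out the airway barcodes gave 4 lower of 9 (18.1% of tested genes lower). Leaving out those of the stromal rules alone gave 4 lower of the 5 with enough UMIs (39.9% of tested genes lower, 8.9% higher), with Lama3 at 117 CPM late and 199 CPM early and Lamb3 at 110 CPM late and 164 CPM early.

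Without either kind, 69 late and 136 early AT1 barcodes remained, and no member was past the limit, 0 of 5, against 16.6% of tested genes higher and 14.6% lower. Lama3 then measured 205.6 CPM late and 205.2 CPM early (1.002, interval 0.777 to 1.29), Lamb3 196 CPM late and 171 CPM early (1.15, 0.878 to 1.499), and Lamb2 144 CPM late and 147 CPM early (0.973). Lama5 was at 42.7 CPM late and 61.5 CPM early (0.693, 0.399 to 1.17) and Lamc1 at 27.2 CPM late and 35.9 CPM early (0.756, 0.368 to 1.49). The other 4 held at most 5 UMIs in either library: none of Lama2, and 0 late and 2 early UMIs each of Nid1 and Lamb1.

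Calls in late over early HER2-positive endothelium depended on whether barcodes that met more than 1 rule were kept. Lama3 was called higher, at 9.75 CPM late and 6.20 CPM early (1.57, interval 0.940 to 2.60), and Lama2 lower, at 6.05 CPM late and 12.9 CPM early (0.470, 0.266 to 0.790), so 1 of 8 in each direction, against 6.78% of tested genes higher and 10.9% lower. Its main chains were within 1.5-fold: Lama5 gave 1.21 (1.004 to 1.44), Lamb2 1.25 (1.07 to 1.46) and Nid1 0.842 (0.728 to 0.972). Without the barcodes that met more than 1 rule, 41 of 479 late and 152 of 1519 early, 3 of 7 were higher and 0 lower (7.97% and 10% of tested genes): Lama3 at 1.62, Lama4 at 1.67 and Lamb1 at 2.02.

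In smooth muscle Lamb1 was higher, at 190 CPM late and 119 CPM early (1.59, interval 1.35 to 1.87), and Lama5 lower, at 23.6 CPM late and 36.6 CPM early (0.644, 0.430 to 0.950), of 7 tested, against 8.57% of tested genes higher and 12.1% lower. Lama2 and Nid1 leaned the way of Lamb1, at 1.35 and 1.27. Most of these barcodes met a second rule, pericyte or fibroblast: 242 of 297 late and 378 of 547 early. Among the rest Lamb1 had 23.1 CPM late and 44.3 CPM early, from 7 and 30 UMIs (0.521, 0.193 to 1.21), which turns its direction. There 0 of 7 were higher and 3 lower, against 10.9% and 22.2% of tested genes.

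Pericytes, the class highest in 5 of the members, stood close in the late and early libraries. Lama3 alone of the tested members was past the limit, 1 of 8 (7.21% of tested genes higher, 10.4% lower), from 12 late and 6 early UMIs with 5 of the 12 in 1 barcode. Lamb1 was 1.24-fold higher late (interval 1.14 to 1.35), within the limit but outside counting error. Without barcodes that met more than 1 rule Lamb1 was again 1.24 (1.10 to 1.41), and 1 of 8 was called (9.51% of tested genes higher, 12.6% lower). Of the 7 tested genes in fibroblasts and the 6 in ciliated barcodes, 0 were past the limit in either direction, against 15.2% higher and 17.4% lower of all tested genes in fibroblasts and 13.5% higher and 11.2% lower in ciliated barcodes.

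Early HER2-positive barcodes were set over HER2-negative barcodes of the same ages. Endothelium had the most calls, 5 higher and 0 lower of 9, against 13.9% of tested genes higher and 6.67% lower, with a median log2 ratio of 0.82 against 0.04 over the tested genes. Lama3 had 6.20 CPM in the HER2-positive and 0.747 CPM in the HER2-negative library (8.30, interval 4.35 to 16.9). Lama2 had 12.9 CPM against 3.74 CPM (3.45, 2.46 to 4.84), Lamb1 19.1 CPM against 7.53 CPM (2.53, 1.96 to 3.26) and Lama4 34.0 CPM against 19.2 CPM (1.77, 1.49 to 2.10). Lamb3 was past the limit on 8 against 5 UMIs (4.32, 1.25 to 16.8). The abundant endothelial members did not move so far: Nid1 gave 1.05 and Lama5 0.834.

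Pericyte markers moved with these genes, summing to 290 CPM in HER2-positive and 33.1 CPM in HER2-negative endothelial barcodes, as did smooth muscle markers, at 643 CPM and 161 CPM, and less so fibroblast markers, at 223 CPM and 172 CPM. Barcodes of more than 1 rule were 152 of 1519 and 94 of 5179. Without them 4 of 9 were higher and 0 lower, against 12.4% and 6.45% of tested genes. Lama3 gave 10.2 (interval 5.09 to 22.1), Lama2 4.24 on 7 against 5 UMIs, Lamb1 1.88 (0.983 to 3.50) and Lamb3 3.63, while Lama4, at 1.37 (1.08 to 1.72), was no longer past the limit.

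Finer endothelial groups carried different chains. Lama3 was highest in the arterial group, marked by Gja5 and Bmx, with 30.7 CPM late, 32.2 CPM early HER2-positive and 5.13 CPM HER2-negative, against 0 (a floor of 3 UMIs allows up to 2.48), 2.06 and 0.0809 CPM in general capillary barcodes. The Vwf-positive group held 2.37 CPM late (1 UMI), 11.6 CPM early HER2-positive and 3.39 CPM HER2-negative. In the HER2-negative library its interval, 1.24 to 7.37 CPM, overlapped the arterial one, 1.06 to 15.0 CPM, from 6 and 3 UMIs. The arterial group was 21.9%, 7.90% and 2.39% of the endothelial class in these libraries, and the class level of Lama3 ran in the same order. Within the arterial group late over early HER2-positive Lama3 was 0.954 (interval 0.509 to 1.80), and early HER2-positive over HER2-negative Lama3 was 6.28 (1.87 to 32.9), on 21 against 3 UMIs. Lama4 was also higher in the arterial group, at 66.5, 50.6 and 46.2 CPM, than in general capillary barcodes, at 29.8, 28.2 and 15.5 CPM, or in aerocytes, the thin gas-exchange capillary cells, at 8.62, 15.5 and 8.89 CPM. The Vwf-positive group held 37.9, 52.0 and 34.4 CPM of Lama4, close to the arterial value in the early HER2-positive library, and endothelial barcodes of no finer group held 101.5 CPM there and 48.4 CPM in the HER2-negative library.

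Lama5 was lower in aerocytes, at 34.5, 21.8 and 15.7 CPM, than in general capillary barcodes, at 70.4, 57.4 and 72.0 CPM. Nid1 ran opposite, at 138, 141 and 159 CPM in aerocytes and 104, 105 and 94.2 CPM in general capillary barcodes, with 58.9, 58.3 and 83.8 CPM in the arterial group. Each of these orders held in all 3 libraries. Between early HER2-positive and HER2-negative general capillary barcodes Lama2 gave 4.13 (interval 2.59 to 6.60), Lamb1 3.08 (2.19 to 4.33), Lama4 1.83 (1.41 to 2.35) and Lama5 0.797. The general capillary Lama2 UMIs were 42 against 37. That is more than the whole endothelial class held without barcodes of more than 1 rule, as given above. The finer groups include such barcodes and were not set without them. The other groups did not follow throughout: in the arterial group Lamb1 was lower, at 0.299 (0.0703 to 0.986, 4 against 12 UMIs), with Lama2 at 0.628 (0.203 to 1.83) and Lama4 at 1.10 (0.639 to 1.90), and in aerocytes Lama2 was 4.04 (1.29 to 14.8), Lama4 1.75 (0.899 to 3.39) and Lamb1 1.02 (0.421 to 2.33). The Vwf-positive group gave Lama2 1.84 (0.663 to 5.05), Lama4 1.51 (1.005 to 2.26) and Lamb1 2.05 (0.842 to 4.98). Endothelial barcodes of no finer group gave Lama2 5.48 (1.53 to 29.7), Lama4 2.10 (1.05 to 4.36) and Lamb1 7.04 (2.71 to 23.3). Whether the groups differ in these ratios was not tested.

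**Figure D4:**
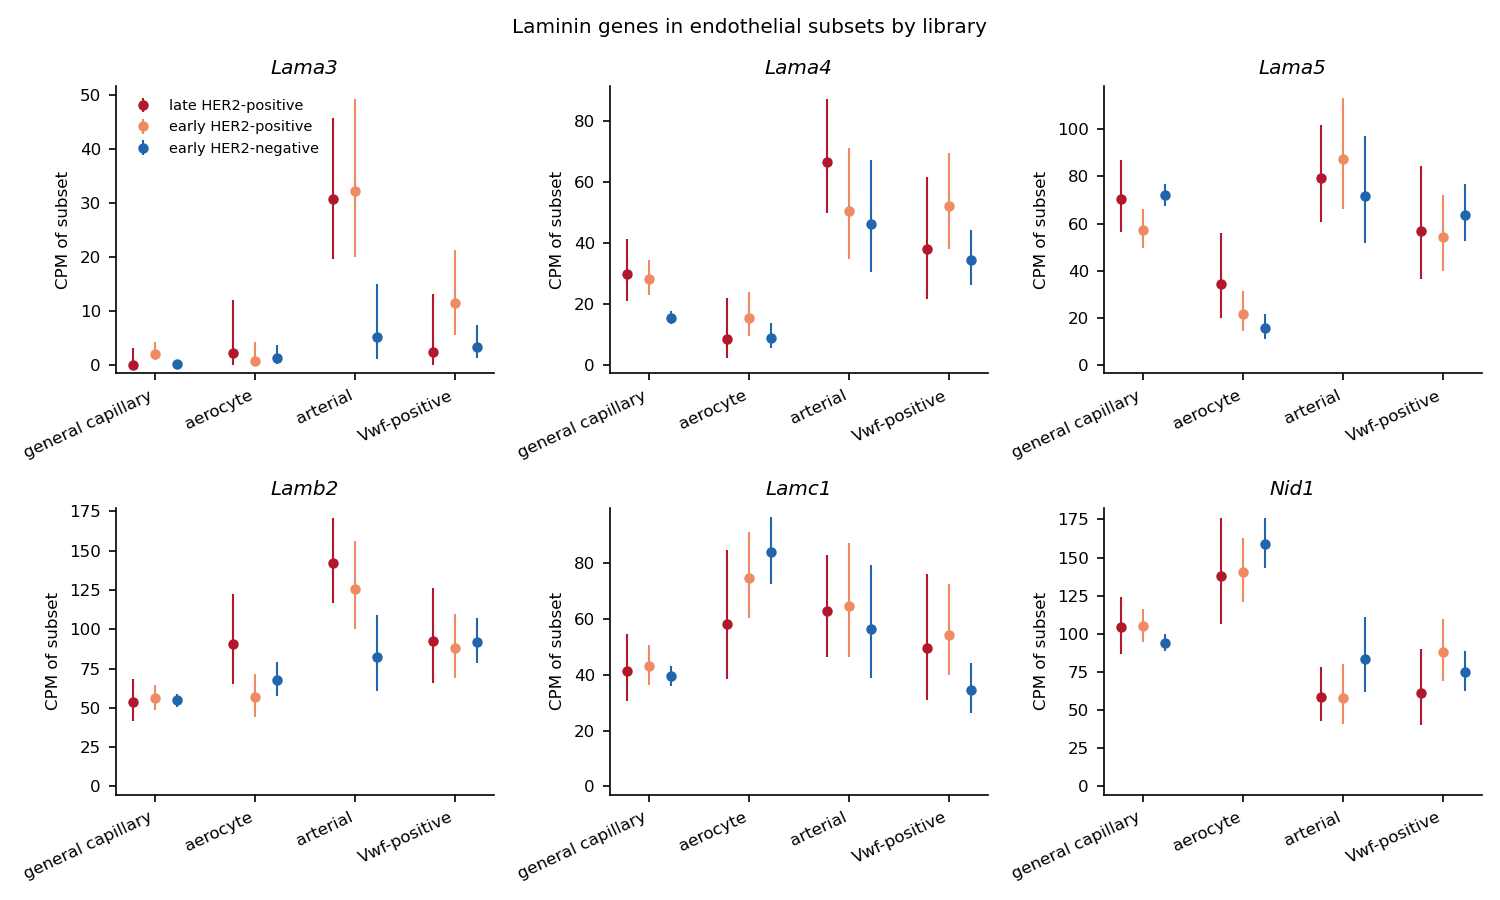
Levels (CPM, exact Poisson 95% intervals) of the genes in finer endothelial groups by library, late HER2-positive, early HER2-positive and HER2-negative. Lama3 stands out in the arterial group of both HER2-positive libraries, at 30.7 and 32.2 CPM, and Nid1 is highest in aerocytes.

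Among the mesenchymal classes the early HER2-positive and HER2-negative libraries were closest in pericytes. Pericytes gave 0 of 6 in either direction, against 16.7% of tested genes higher and 9.18% lower, and 0 of 6 again without barcodes that met more than 1 rule (20.4% higher, 12.7% lower). Smooth muscle gave 1 higher and 0 lower of 7, against 21.5% and 16%: Lama5, at 36.6 CPM against 7.25 CPM, from 87 UMIs against 2 (5.05, interval 1.36 to 42.3). Airway markers in smooth muscle summed to 1998 CPM in the early HER2-positive and 3.62 CPM in the HER2-negative library, and the part of airway RNA in that ratio was not tested. Smooth muscle Lamb2 was within the limit but outside counting error, at 0.725 (interval 0.574 to 0.926).

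In fibroblasts Nid1 was higher, at 251 CPM in the HER2-positive and 162 CPM in the HER2-negative library (1.54, interval 1.34 to 1.77), and Lama5 lower, at 10.1 CPM against 19.4 CPM (0.521, 0.264 to 0.951), of 7 tested, against 17.9% of tested genes higher and 13.4% lower. Fibroblast Lama2 was within the limit but outside counting error, at 1.37 (1.18 to 1.59). The early HER2-positive and HER2-negative libraries also differed in their mix of fibroblasts. The adventitial group, marked by Pi16 and Dpt, was 46.9% of HER2-positive and 37.3% of HER2-negative barcodes of the class. Nid1 was 287 CPM against 206 CPM in this group and 136 CPM against 129 CPM in the alveolar group, marked by Inmt and Npnt. The class held 323 HER2-positive and 570 HER2-negative Nid1 UMIs. Of these the adventitial group held 209 and 295, and the alveolar group 37 and 250. The rest lay in barcodes of neither group. With close Nid1 CPM in the alveolar group, these UMIs mean that the alveolar part of the class was smaller in the HER2-positive library. The part of this mix in the ratios of the fibroblast class was not tested. Lama2 was higher in the adventitial group as well, at 294 CPM against 227 CPM, than in the alveolar group, at 117 CPM against 102 CPM. HER2-positive over HER2-negative Lama5 was 0.116 (interval 0.00277 to 0.739) in the adventitial group, on 1 against 17 UMIs. In the alveolar group it was 0.740 (0.230 to 1.85), on 5 against 48 UMIs.

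Mammary barcodes of the late library were set over AT2 barcodes of the same library. Lama4 was higher, at 48.4 CPM against 2.32 CPM (20.8, interval 16.0 to 27.3). It was the 1 gene of 9 called higher, and 5 were lower, where 45.2% of tested genes were higher and 24% lower, with a median log2 ratio of -0.89 over the members and 0.48 over the tested genes. Scaling by the median ratio lowered each log2 ratio by 0.70 and put 7 of 9 past the limit as lower, adding Lama5 (-1.24) and Lamb2 (-0.62), with Lama4 still higher (3.68).

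Lama3 and Lamb3 were on the low side in the mammary class. Lama3 had 0.541 CPM against 16.5 CPM (0.0328, interval 0.004 to 0.119) and Lamb3 16.5 CPM against 49.1 CPM (0.336, 0.256 to 0.434). Nid1 (0.443, 0.160 to 0.990), Lama2 (0.421, 0.0495 to 1.61) and Lamb1 (0.541, 0.213 to 1.15) were past the limit too, at levels no higher than 3.66 CPM in either class and with the AT2 UMIs mostly in barcodes that also met a stromal rule. Without such barcodes Lamb1 turned to 1.77 (0.535 to 4.60), Nid1 was 0.530 (0.0128 to 3.31) and Lama2 had no mammary UMI, and doubled class thresholds turned the direction of each of these 3 genes. Lamb2, at 51.9 CPM against 49.1 CPM (1.06), Lamc1 (1.11) and Lama5 (0.688) were within the limit on the CPM scale, and Lama4 and Lamb2 were the leading alpha and beta chains of the mammary class.

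Lama4 was spread over mammary barcodes rather than held by a few. It had a UMI in 90 of 161 mammary barcodes (55.9%), at a median depth of 22179 UMIs, and in 47 of 3996 AT2 barcodes (1.18%), at a median depth of 8837 UMIs, with at most 8 UMIs in 1 mammary barcode. Thinned to 1000 UMIs each, 3.73% of mammary barcodes (interval 1.38% to 7.93%) and 0.150% of AT2 barcodes had a UMI. Without barcodes that also met a stromal rule, 152 mammary and 3885 AT2 barcodes remained, and Lama4 measured 49.7 CPM in mammary and 0.398 CPM in AT2 barcodes (125, 72.3 to 233), with 2 higher and 4 lower of 8 (46.3% and 23.2% of tested genes).

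**Figure D5:**
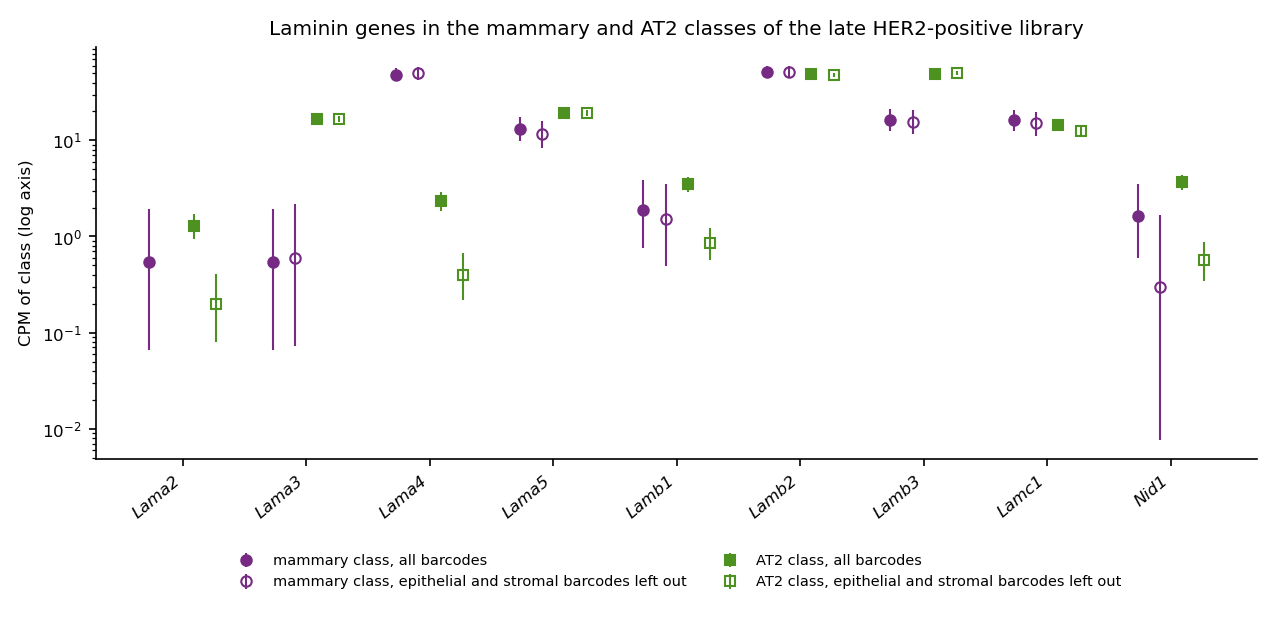
Levels (CPM, log axis, exact 95% intervals) of the 9 genes in mammary and AT2 barcodes of the late HER2-positive library, with filled points for all barcodes of the class and open points without barcodes that also met a stromal rule. Lama4 stands at 48.4 CPM in mammary and 2.32 CPM in AT2 barcodes, and Lama3 at 0.541 and 16.5 CPM.

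The rest of the basement membrane list, 14 genes, showed 3 higher and 10 lower in mammary over AT2 barcodes, against 45.2% of tested genes higher and 24% lower. Without barcodes that also met a stromal rule 3 of 12 were higher and 7 lower, against 46.3% and 23.2% of tested genes. The higher ones were Col4a6, at 17.6 CPM against 0.738 CPM (23.8, interval 15.0 to 38.8), Col4a5, its partner collagen IV chain, at 56.2 CPM against 13.3 CPM (4.23), and the integrin ligand nephronectin, Npnt, at 880 CPM against 131 CPM (6.70). The common collagen IV chain Col4a1 was lower, at 7.84 CPM against 146 CPM, as was the collagen-binding Sparc, at 25.4 CPM against 319 CPM. Of 7 laminin receptors 2 were higher and 4 lower, also without those barcodes. Itga6 and Itgb4, which pair as the hemidesmosomal laminin receptor, measured 164 CPM against 14.3 CPM (11.5, 10.2 to 12.9) and 43.0 CPM against 0.410 CPM (105, 61.7 to 192), with UMIs in 149 and 93 of 161 mammary barcodes. Bcam, a receptor for Lama5-containing laminins, was lower, at 14.9 CPM against 193 CPM, and dystroglycan, Dag1, at 76.8 CPM against 154 CPM.

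Between late and early HER2-positive libraries the same list gave 4 lower of 14 in AT2 (Nid2, Col4a6, Col18a1 and Ntn4), against 15.3% of tested genes lower. Without barcodes that also met a stromal rule it gave 0 of 12, against 7.61% of tested genes lower. In AT1 it gave 9 lower, against 34.1%. Without barcodes that also met a stromal rule 11 of 11 were lower, against 39.9% of tested genes. Without those and the airway barcodes 1 of 11 (Col4a6) was lower, against 14.6%. Endothelium gave 2 higher and 3 lower, against 6.78% and 10.9%, with Ntn4 at 180 CPM late and 116 CPM early (1.56). Without endothelial barcodes of more than 1 rule 5 of 13 were higher and 2 lower, against 7.97% and 10% of tested genes. Smooth muscle gave 3 higher and 1 lower of 13, against 8.57% and 12.1%, with Col4a1 at 1.56 and Col4a2 at 1.61 beside Lamb1 at 1.59. Without smooth muscle barcodes that met more than 1 rule it gave 0 of 10 either way, against 10.9% higher and 22.2% lower. Pericytes, which held over 2000 CPM of Col4a1 in each library (2311, 2178 and 2443 CPM), gave 1 higher and 1 lower of 10, against 7.21% and 10.4%. The higher one was Col15a1, with 73 late and 3 early UMIs (22.5), but 5 barcodes held all 73 and 1 of them held 30.

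Early HER2-positive over HER2-negative, 8 of 14 basement membrane genes were higher and 0 lower in endothelium, against 13.9% of tested genes higher and 6.67% lower, among them perlecan, Hspg2, at 24.3 CPM against 9.77 CPM (2.49). The pericyte and smooth muscle markers given above were higher in the same barcodes. Without barcodes of more than 1 rule 7 of 13 were higher and 1 lower (Nid2), against 12.4% and 6.45% of tested genes. In fibroblasts 8 of 14 were higher and 1 lower, against 17.9% and 13.4%. Nid2, the second nidogen, measured 38.0 CPM against 9.12 CPM (4.17, interval 2.62 to 6.73), Col15a1 216 CPM against 82.1 CPM (2.63) and agrin, Agrn, 36.5 CPM against 13.7 CPM (2.67). Npnt, a marker gene of the alveolar fibroblast group, was lower (0.368). The mix of fibroblast groups differed between these libraries, as given above, and its part in these fibroblast ratios was not tested. Among receptors, fibroblasts held 43 against 7 UMIs of Itga6 (16.7) and 40 against 7 of Itgb4 (15.6), in 21 and 23 of 277 HER2-positive barcodes.

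Over the 19 profiles of library and class, log2(CPM + 1) of Lama2, Lamb1 and Lamc1 ran together, with Pearson r of 0.97 for Lama2 and Lamc1, 0.96 for Lamb1 and Lamc1 and 0.95 for Lama2 and Lamb1. Lamc1 and Nid1 gave 0.94. Lama3 and Lamb3, chains of 1 trimer, gave 0.51, and Lama2 and Lama5 gave -0.71. Among 7260 genes compared, the nearest to each member were Col6a3 for Lama2 (0.99), Scnn1a for Lama3 (0.97), Chd9 for Lama4 (0.95), Itga3 for Lama5 (0.92), Dse for Lamb1 (0.99), Cap1 for Lamb2 (0.94), Slc39a8 for Lamb3 (0.95), Ptprs for Lamc1 (0.99) and Cnrip1 for Nid1 (0.99). The profiles share libraries, depth and marker rules, so these values describe the profiles and were not tested.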

How the data were processed

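Droplet 3′ libraries, 3 in all and 1 per group, were deposited as unfiltered matrices of UMI counts for 27998 genes and 6794880 barcodes. Per the file headers these deposited counts were written by matrix software 3.1.0, and per the submitters' processing notes the genome build was mm10. Neither labels nor headers name the aligner, annotation release, strand setting or handling of doublets. The files held 54961019 UMIs for the late HER2-positive, 49248126 for the early HER2-positive and 25610135 for the HER2-negative library.

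Barcodes with at least 1000 UMIs and under 25% mitochondrial UMIs were kept and classed in this order, taking the first rule met: mammary (Csn3 and Wfdc18, at least 1% of UMIs), AT2 (Sftpc, at least 10%), AT1 (Ager and Rtkn2, at least 4 UMIs), endothelial (Cldn5 and Cdh5, 2), smooth muscle (Myh11 and Cnn1, 3), pericyte (Higd1b and Cox4i2, 2), fibroblast (Pdgfra and Col1a2, 2) and ciliated (Ccdc153 and Tmem212, 2). No doublet caller was run. UMIs were summed per library and class and scaled to CPM. Ratios carry exact conditional Poisson intervals, levels exact Poisson intervals and shares exact Clopper-Pearson intervals, all at 95% and for counting error only. No test was made between single libraries. The calculation was tested on simulated counts. For likeness, the 3 genes with the highest Pearson r per member over log2(CPM + 1) were computed, and the first is named.

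The members, gene lists and comparisons were chosen with earlier results of these data known. Named genes were the 9 members, the other laminin chains Lama1 and Lamc3, 14 other basement membrane genes, 7 laminin receptors and those likeness genes. A further result is not reported here. Gene positions came from the GENCODE annotation of GRCm38 and promoters from RefSeq. Leaving out barcodes of mixed epithelial and stromal rules, or with a high share of airway transcripts, was added after the values were seen. Python 3.11.15, numpy 2.4.6, scipy 1.17.1, pandas 2.3.3 and matplotlib 3.10.9 were used.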

Additional observations from a re-analysis of the deposited data

Results flagged for a closer look

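Lamb1 and Lama5 had ratios on opposite sides of 1 in different classes of the same libraries, and neither difference between classes was tested, since each group is 1 library. Late over early HER2-positive, Lamb1 had a ratio of 1.59 in smooth muscle, 0.299 in AT2 and 0.437 in AT1 barcodes. These directions depended on which barcodes were kept. Without all that met more than 1 class rule the log2 ratio of Lamb1 was -0.94 in smooth muscle and 1.68 in AT2. That setting left out 3438 of 3996 late and 3126 of 3939 early AT2 barcodes. Most of those met the AT1 rule, which 3422 late and 3057 early AT2 barcodes did. The AT2 value of 1.68 thus rests on a small part of the class. Without only the mixed epithelial and stromal barcodes the AT2 ratio was 0.728 (interval 0.422 to 1.26). Early HER2-positive over HER2-negative, Lama5 had a ratio of 5.05 in smooth muscle, from 2 HER2-negative UMIs, and 0.521 in fibroblasts.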

How the results depend on the processing

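No paired analysis was possible because each group is 1 library, and for the same reason no replicate could be left out. Of 1241 log2 ratios recomputed under the alternatives, 15 belonged to a called gene and turned sign. Sign changes of genes that were not called were not counted, although the 1241 include such genes. The 15 are thus a larger part of the ratios that could have been counted. Of 398 counts of calls, 344 stayed within 1.5 times of the reported count. Among log2 ratios, with barcodes of more than 1 class left out, late over early, AT2 gave Lama2 0.98 (reported -2.13), Lamb1 1.68 (-1.74) and Nid1 1.98 (-1.44), AT1 gave Lama4 2.11 (-2.20) and smooth muscle Lamb1 -0.94 (0.67). That setting left out most AT2 barcodes, 3438 of 3996 late and 3126 of 3939 early. These AT2 genes were all past 1.5-fold, yet only 1 member was called higher there, so the rest had under 10 UMIs. AT1 Lama4 was also 2.11 without mixed epithelial and stromal barcodes and 2.92 without airway barcodes as well, on 5 UMIs or fewer. With class rules on thinned counts, smooth muscle Lamb1 gave -0.18 and AT1 Lamb2 0.054 (-0.66). For mammary over AT2, doubled class thresholds gave Lama2 1.27 (-1.25), Lamb1 1.36 (-0.89) and Nid1 1.86 (-1.17), and Lamb1 was 0.82 without mixed barcodes, 0.81 without mixed and airway barcodes and 0.29 with free RNA taken off.

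Counts of members called moved as follows, late over early HER2-positive unless named otherwise. A 2-fold limit left 0 higher in endothelium, pericytes and smooth muscle and 0 lower in smooth muscle, and 0 higher and 0 lower in fibroblasts early HER2-positive over HER2-negative. A minimum of 50 UMIs left 0 higher in pericytes. With barcodes of more than 1 class left out, AT2 had 1 higher and 0 lower, AT1 4 lower, endothelium 3 higher and 0 lower, and smooth muscle 0 higher and 3 lower. With mixed epithelial and stromal barcodes left out, AT2 had 2 lower, AT1 4 lower and mammary over AT2 2 higher. With airway barcodes left out AT1 had 4 lower, and with both left out AT1 had 0 lower, AT2 2 lower and mammary over AT2 2 higher. Class rules on thinned counts gave endothelium 0 higher and 2 lower, smooth muscle 0 higher and 0 lower, ciliated 2 lower, pericytes 1 lower, and, early HER2-positive over HER2-negative, fibroblasts 0 higher and pericytes 1 higher. Doubled thresholds gave endothelium 0 higher and 2 lower, pericytes 0 higher and 1 lower, smooth muscle 0 higher and 2 lower, mammary over AT2 3 higher and 2 lower, and, early HER2-positive over HER2-negative, fibroblasts 0 higher and pericytes 3 higher. Equal weight per cell gave ciliated 2 lower and fibroblasts 1 lower, and 0 lower in fibroblasts early HER2-positive over HER2-negative, where median-ratio scaling gave 0 higher. A mitochondrial limit of 10% gave ciliated 1 higher and 1 lower. With no UMI minimum for a call, ciliated had 1 higher, endothelium 2 lower, fibroblasts 2 lower, pericytes 1 lower and smooth muscle 3 lower, and, early HER2-positive over HER2-negative, fibroblasts had 3 higher, pericytes 2 and smooth muscle 3. Leaving out the barcode with most UMIs of each gene gave fibroblasts 2 lower. The cause of these shifts was not tested beyond the barcodes named.

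Smooth muscle early HER2-positive over HER2-negative gave no value with doubled thresholds, thinned rules or barcodes of more than 1 class left out, nor did late fibroblasts with thinned rules, since fewer than 50 barcodes remained. AT1 gave none with free RNA taken off, where the estimate reached 100% late and 76.4% early. Depth limits the genes under 10 UMIs, and no interval covers the spread between mice.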

Other observations

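Barcodes that met no rule also carried laminin genes. The 123 late HER2-positive ones held 72.9 CPM of Lamb3 and 111 CPM of the hemidesmosomal integrin Itgb4, beside 232 CPM of the basal epithelial markers Krt5 and Trp63. The 242 early HER2-positive ones held 44.3 CPM of Lamb3, 77.8 CPM of Itgb4 and 165 CPM of the basal markers. Mesenchymal chains were found in the early unmatched barcodes as well, with Lama4 at 113 CPM and Nid1 at 101 CPM. The 237 HER2-negative ones had no UMI of Lamb3, Krt5 or Trp63 and 1 of Itgb4, and red cell genes made up 621737 CPM of them.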
